A study of Mus musculus with 2 samples.

Results

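The 10 genes described here encode early transcription factors of the AP-1, Egr and Nr4a families: Fos and Fosb, Jun, Junb and Jund, Atf3, Egr1 and Egr2, and Nr4a1 and Nr4a2. They were chosen by gene symbol from 22020 symbols, with 1 transcript per symbol (that with the highest mean RPKM, reads scaled by transcript length and library read total), and all 10 were found. RNA was sequenced from LSK cells, the sorted lineage-negative, c-Kit-positive and Sca-1-positive fraction of the blood-forming system that holds the stem cells and early multipotent progenitors, of 8-week-old mice of the C57BL/6 strain. The Utx/p53 DKO mice lacked both the histone demethylase gene Utx (Kdm6a) and the tumour suppressor gene p53 (Trp53), and the p53 KO mice lacked p53, so both groups are p53-deficient. There was 1 library per genotype, with 19926294 reads for DKO and 17088105 reads for p53 KO. No difference therefore has a replicate check, no test between genotypes was possible, and every value describes these 2 libraries. The deleted exons, the Cre or other means of deletion and the number and sex of the mice are not stated in the labels.

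Most genes of this kind are switched on within minutes of a growth factor, cytokine or stress signal, without new protein synthesis, and their messages are short-lived. MAP kinases and calcium or cyclic AMP signals act on factors already bound at their promoters, chiefly SRF with its ETS partners and CREB. Fos and Jun proteins pair through leucine zippers to form AP-1, Egr proteins are zinc finger factors, and Nr4a proteins are orphan nuclear receptors; in blood stem cells Egr1 and the Nr4a receptors have been tied to quiescence and self-renewal.

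The levels of 9 of the 10 genes were below those of p53 KO in the DKO library by read number, and Junb had the same number of reads in both. Genes averaging 1 RPKM or more across the pair of libraries were counted as measured, a level that 9 of the 10 reached and Egr2 did not. Nr4a1 and Nr4a2 reached it only through the p53 KO library, being below 1 RPKM in DKO (0.486 and 0.415). On the scale log2(RPKM + 1), Nr4a1 differed most of these 9, at 0.486 RPKM in DKO and 12.7 RPKM in p53 KO, followed by Nr4a2, Fos, Fosb and Egr1. By the plain RPKM ratio Egr2 lay lower still, at 0.0357 against 0.0384 for Nr4a1, from 2 reads in DKO and 48 in p53 KO. Of these 9, 5 were lower in DKO by 2-fold or more and 0 higher by as much, on the scale log2(RPKM + 1), against 13.5% lower and 6.6% higher among all 11356 measured genes. Their median difference was -1.01 on that scale, against -0.24 over all measured genes, a distance of -0.78. A negative difference by itself was common, since 65.2% of all measured genes had one.

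**Figure D1:**
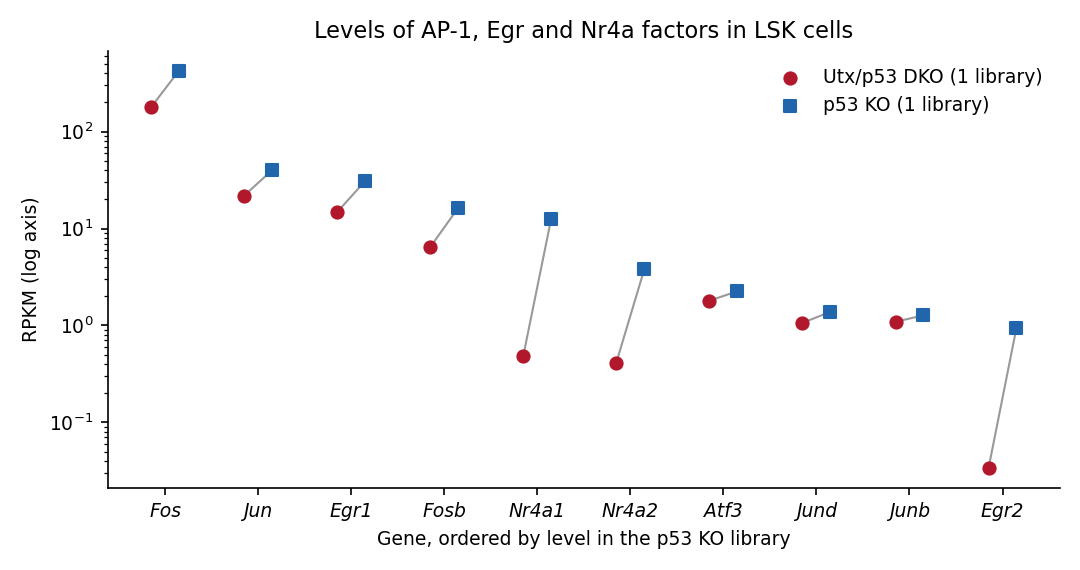
RPKM of each gene (log axis) in the Utx/p53 DKO library (circles, left) and the p53 KO library (squares, right), with 1 library per genotype and genes ordered by their p53 KO level. Fos stands at 179 in DKO and 426 in p53 KO, and the steepest lines belong to Egr2, Nr4a1 and Nr4a2.

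The promoters of the measured genes with the largest differences are shown beside those of Junb and Atf3, whose reads differed least. They are shown because CREB, one of the factors that start early genes, binds the cyclic AMP response element (CRE). Each runs 5′ to 3′ from 250 bases before to 50 bases after the gene's start in RefSeq (build GRCm38.p6), and capitals mark the CRE core TGACG or its reverse complement. The windows are chr15:101266596-101266895 on the plus strand for Nr4a1, chr2:57123954-57124253 on the minus strand for Nr4a2, chr12:85473640-85473939 on the plus strand for Fos, chr7:19309996-19310295 on the minus strand for Fosb, chr8:84978699-84978998 on the minus strand for Junb and chr1:191183284-191183583 on the minus strand for Atf3.
Nr4a1: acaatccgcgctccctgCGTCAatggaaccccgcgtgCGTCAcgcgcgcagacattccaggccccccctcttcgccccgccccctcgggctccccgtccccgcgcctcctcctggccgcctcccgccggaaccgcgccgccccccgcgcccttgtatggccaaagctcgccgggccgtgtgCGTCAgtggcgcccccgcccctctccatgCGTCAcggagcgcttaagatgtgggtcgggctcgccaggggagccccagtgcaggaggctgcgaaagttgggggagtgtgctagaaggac
Nr4a2: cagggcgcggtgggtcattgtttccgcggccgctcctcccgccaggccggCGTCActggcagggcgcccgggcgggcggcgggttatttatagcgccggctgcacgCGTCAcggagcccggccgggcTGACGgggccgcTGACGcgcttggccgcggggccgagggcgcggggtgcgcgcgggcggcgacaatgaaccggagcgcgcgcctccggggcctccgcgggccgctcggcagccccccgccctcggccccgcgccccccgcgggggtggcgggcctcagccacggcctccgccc
Fos: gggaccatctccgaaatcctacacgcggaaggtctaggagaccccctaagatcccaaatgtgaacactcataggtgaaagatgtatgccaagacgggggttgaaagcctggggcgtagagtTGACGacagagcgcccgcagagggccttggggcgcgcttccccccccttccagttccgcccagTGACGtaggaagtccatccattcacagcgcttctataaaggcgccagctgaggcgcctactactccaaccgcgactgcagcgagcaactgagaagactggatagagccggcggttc
Fosb: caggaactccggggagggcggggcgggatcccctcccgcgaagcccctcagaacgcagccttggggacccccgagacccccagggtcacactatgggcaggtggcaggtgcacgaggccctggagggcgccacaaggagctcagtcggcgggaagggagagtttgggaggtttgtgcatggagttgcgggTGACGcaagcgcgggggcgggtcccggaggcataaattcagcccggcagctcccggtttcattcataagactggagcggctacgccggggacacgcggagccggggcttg
Junb: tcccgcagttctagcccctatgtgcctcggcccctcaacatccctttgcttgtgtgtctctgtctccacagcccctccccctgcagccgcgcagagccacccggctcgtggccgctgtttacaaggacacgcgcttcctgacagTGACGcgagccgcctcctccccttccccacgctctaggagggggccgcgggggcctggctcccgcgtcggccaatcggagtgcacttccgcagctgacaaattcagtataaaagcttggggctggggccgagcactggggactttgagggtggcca
Atf3: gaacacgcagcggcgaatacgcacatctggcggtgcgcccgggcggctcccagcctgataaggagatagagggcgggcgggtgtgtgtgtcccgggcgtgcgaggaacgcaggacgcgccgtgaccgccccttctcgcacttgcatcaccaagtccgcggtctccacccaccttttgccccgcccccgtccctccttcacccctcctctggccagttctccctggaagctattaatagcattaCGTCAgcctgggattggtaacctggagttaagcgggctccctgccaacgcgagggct

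The promoter windows of Nr4a1 and Nr4a2 held 4 CRE cores each, that of Fos 2, and those of Fosb, Junb and Atf3 1 each, while those of Jun and Jund held 0. Egr2 has 5 overlapping or nearby windows in the RefSeq table, with 0 to 2 cores, and 3 of its windows held 2. Across all 32851 windows of the same length, 20.8% held at least 1 core on either strand, 5.01% at least 2 and 0.231% at least 4. The core contains a CpG, so these shares depend on base composition, for which the windows were not matched. Whether the number of cores goes with the size of a difference was not tested. The complete palindrome TGACGTCA, in which cores on both strands overlap and count as 2, was in 0 of the 9 members with a window (1.79% of all windows).

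Other motifs were rarer in these windows, and a match is no evidence of binding. The AP-1 site TGANTCA (7.81% of all windows, both strands) and the Nr4a site AAAGGTCA (1.51%) were in 0 of 9. The Egr site GCGNGGGCG was found once each for Fosb, Nr4a1 and Nr4a2 and is in 5.55% of all windows. The CArG box, which SRF binds, was found for Egr2 alone among these 9 (1.63% of all windows), and the TATA box word TATAAA for Fos and Junb on the gene's strand and for Nr4a2 on the opposite strand alone (13.6%, both strands). These letters say only what is in the 300 bases of each window. Egr1 was not matched in the promoter table.

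Fos, the main Fos-family partner in AP-1, was the most abundant of the 10 genes in both libraries. It was at 179 RPKM in DKO (7449 reads) and 426 RPKM in p53 KO (15245 reads), a level above that of 96.8% of measured genes in DKO and 99.2% in p53 KO. This was 2.39-fold lower in DKO, with an exact (Clopper-Pearson) 95% interval of 2.32 to 2.45 that covers counting error only, as do all intervals here. Its difference of log2(RPKM + 1) was -1.25. Fos made up 78.8% of the summed RPKM of the 9 measured members in DKO and 79.7% in p53 KO.

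Fosb, a close relative of Fos, was lower by much the same factor at a far lower level. It was at 6.43 RPKM in DKO (484 reads) and 16.3 RPKM in p53 KO (1054 reads), 2.54-fold lower (2.28 to 2.83), with a log2(RPKM + 1) difference of -1.22. The ratio of Fos to Fosb within a library, which no scaling of the libraries can change, was 27.8 in DKO and 26.1 in p53 KO. The DKO ratio over the p53 KO ratio was 1.06 (exact 95% interval 0.95 to 1.19), so a difference between the pair was not detectable at this depth.

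Jun, the founding Jun-family member and a strong AP-1 activator, was at 21.8 RPKM in DKO (1386 reads) and 40.0 RPKM in p53 KO (2181 reads). It was 1.83-fold lower (1.71 to 1.96), and its log2(RPKM + 1) difference of -0.85 lay just outside the 2-fold rule. Fos differed somewhat more than Jun: the ratio of Fos to Jun was 8.18 in DKO and 10.6 in p53 KO, a DKO ratio 0.769 times that of p53 KO (0.714 to 0.828).

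Junb and Jund, which often act as weaker or opposing partners of Jun, were near the bottom of the measured range. Junb was at 1.09 RPKM in DKO and 1.27 RPKM in p53 KO. Its RPKM values fit equal read numbers in the 2 libraries at any transcript length, and 40 reads in each at the RefSeq length of 1840 bases. Jund was at 1.06 RPKM in DKO (61 reads) and 1.38 RPKM in p53 KO (68 reads). The RPKM ratio, DKO over p53 KO, was 0.858 for Junb (0.539 to 1.36) and 0.769 for Jund (0.535 to 1.10), so neither differed beyond counting error.

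Jun therefore supplied most Jun-family message, at 91.0% of the summed RPKM of the 3 genes in DKO and 93.8% in p53 KO. Relative to Junb, Jun was 20.0 times as abundant in DKO and 31.5 times in p53 KO, a quotient of 0.635 (0.397 to 1.02). Relative to Jund the quotient was 0.708 (0.491 to 1.03), and for Junb over Jund it was 1.11 (0.614 to 2.02). All of these intervals include 1. Fos over Junb, by contrast, was 164 in DKO and 335 in p53 KO, a quotient of 0.489 (0.307 to 0.778).

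Features of these transcripts that the choice of genes did not use set Junb and Jund apart. Jun, Junb and Jund are the 3 members with a single exon in GENCODE. The GC content of the transcript was 62.6% for Junb and 67.1% for Jund, above 99.2% and 99.9% of measured genes, against 47.5% to 57.0% in the other 8 members and a median of 49.9% over the 11040 measured genes with a GC value. In the quintile of measured genes with the highest GC, the median level was 6.06 RPKM in DKO and 7.68 RPKM in p53 KO, against 8.61 RPKM in DKO and 10.3 RPKM in p53 KO in the next quintile. The median log2(RPKM + 1) difference was -0.21 in both of these quintiles and -0.33 in the quintile with the lowest GC. Fosb and Nr4a1 also fell in the quintile with the highest GC. Fosb was at 6.43 RPKM in DKO and 16.3 RPKM in p53 KO, and Nr4a1 at 0.486 RPKM in DKO and 12.7 RPKM in p53 KO. The part of GC in the low level of Junb and Jund was not tested. In GENCODE, Jun overlaps Junos, Junb overlaps Prdx2, Jund overlaps Gm11175 and Atf3 overlaps Gm24748, each on the opposite strand, and the labels do not say whether reads were counted by strand.

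Atf3, a stress-induced factor that pairs with Jun proteins and often represses, was at 1.80 RPKM in DKO (71 reads) and 2.25 RPKM in p53 KO (76 reads). Its ratio of 0.801 (0.571 to 1.12) included 1, and its log2(RPKM + 1) difference of -0.21 stood close to the median of all genes.

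**Figure D2:**
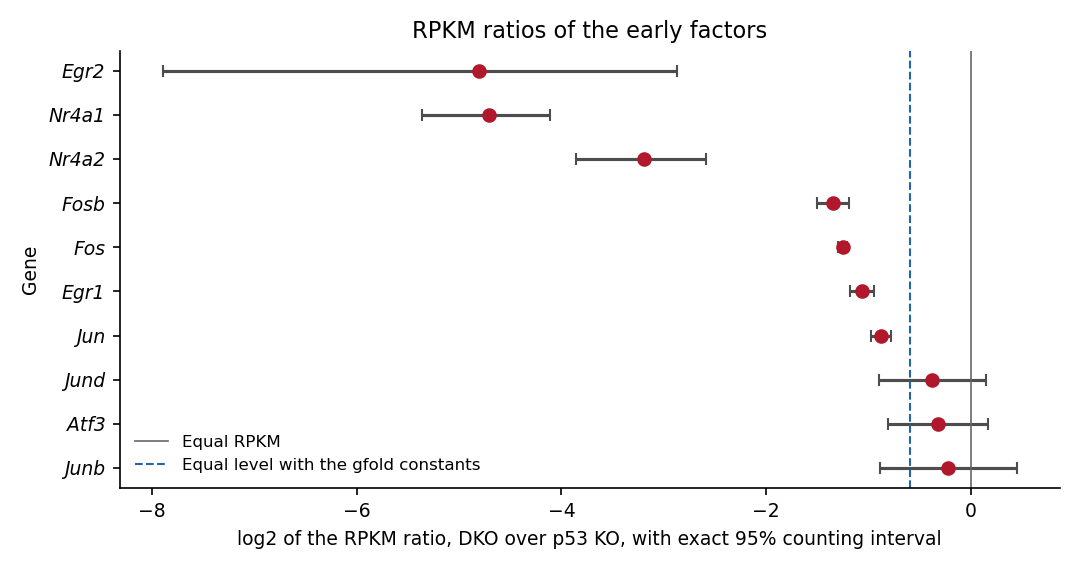
log2 of the RPKM ratio, DKO over p53 KO, for each gene, with bars for the exact 95% counting interval; the solid line marks equal RPKM and the dashed line equal levels with the authors' gfold constants. Egr2, Nr4a1 and Nr4a2 lie far to the left of both lines, and the intervals of Jund, Atf3 and Junb cross both.

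Egr1, a zinc finger factor known to restrain stem cell division and exit from the niche, was at 14.8 RPKM in DKO (906 reads) and 30.9 RPKM in p53 KO (1623 reads). It was 2.09-fold lower (1.92 to 2.27), and its difference of -1.01 lay just inside the 2-fold rule. Egr2, its relative in myeloid and lymphoid cells, was at 0.0339 RPKM in DKO and 0.947 RPKM in p53 KO. That was 2 reads in DKO and 48 in p53 KO, a ratio of 0.0357 (0.00421 to 0.136). Because 1 is added to each RPKM, its log2 difference of -0.91 understates this ratio.

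Within the Egr pair the weight shifted to Egr1. Egr2 was 0.228% of the summed RPKM of the pair in DKO and 2.97% in p53 KO, and the ratio of Egr1 to Egr2 was 13.4 times as high in DKO as in p53 KO (3.50 to 114). Egr1 differed somewhat less than Fos and somewhat more than Jun: Fos over Egr1 was 12.1 in DKO and 13.8 in p53 KO (quotient 0.875, 0.803 to 0.955), and Jun over Egr1 1.47 in DKO and 1.30 in p53 KO (quotient 1.14, 1.02 to 1.27).

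Nr4a1 (Nur77), an orphan nuclear receptor of stimulated lymphoid and myeloid cells, had 24 reads in DKO and 536 in p53 KO. It was at 0.486 RPKM in DKO and 12.7 RPKM in p53 KO, 26.0-fold lower (17.3 to 41.0), and its log2(RPKM + 1) difference of -3.20 was the 16th lowest of all 11356 measured genes. Its level passed that of 58.1% of measured genes in p53 KO and of 2.33% in DKO.

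Nr4a2 (Nurr1), its relative with the same DNA site, was 9.14-fold lower (6.01 to 14.5). It was at 0.415 RPKM in DKO (25 reads) and 3.79 RPKM in p53 KO (196 reads), a log2(RPKM + 1) difference of -1.76. Both Nr4a2 transcripts of the table had the same reads, so they are 1 measurement. The ratio of Nr4a1 to Nr4a2 was 1.17 in DKO and 3.34 in p53 KO, a quotient of 0.351 (0.187 to 0.658).

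The Nr4a genes differed more than Fos. Nr4a1 over Fos was 0.00272 in DKO and 0.0297 in p53 KO, a quotient of 0.0916 (0.0581 to 0.138), and for Nr4a2 over Fos the quotient was 0.261 (0.165 to 0.397). These quotients compare genes within each library and were computed for 12 pairs in all.

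**Figure D3:**
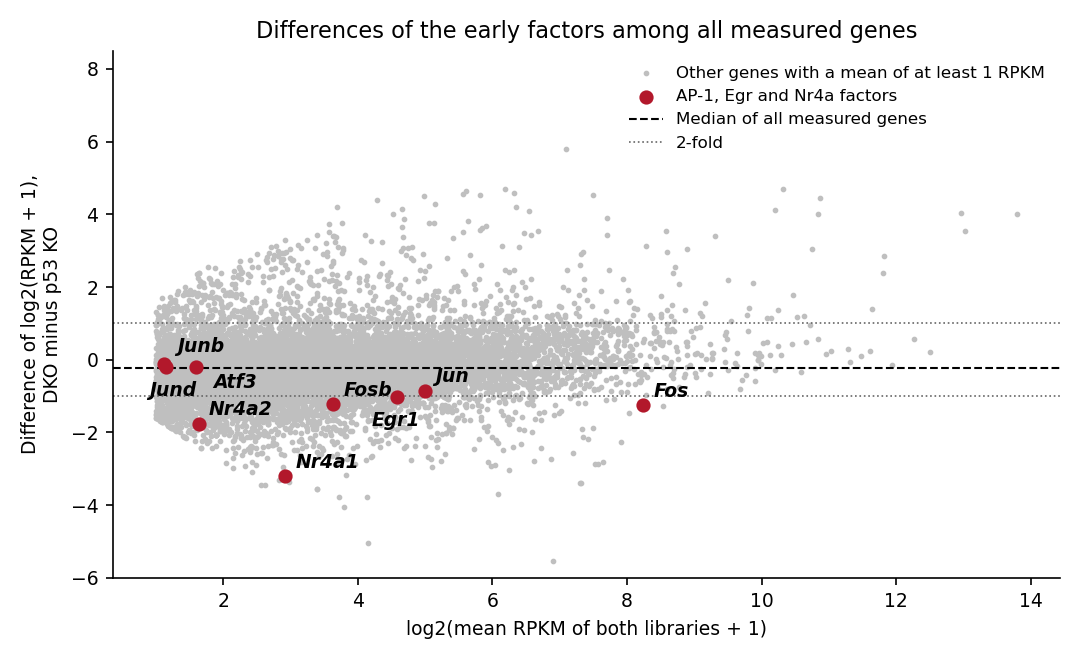
Difference of log2(RPKM + 1), DKO minus p53 KO, against the log2 of the mean RPKM plus 1 for all 11356 measured genes (grey) and the 9 measured early factors (red, named). Nr4a1 lies at -3.20 near the lower edge of the cloud, while Junb, Jund and Atf3 lie by the dashed median of -0.24.

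By counting error alone, 6 of the 9 measured members had a 95% interval of the ratio below 1, against 52.7% of the 10687 measured genes with recovered reads, so that count is not far from the background. In the authors' deposited table, which uses other scaling constants, the GFOLD value (a log2 fold change drawn towards 0 for low counts) was below 0 for the same number, 6 of 9, against 22.9% of measured genes. It was -3.42 for Nr4a1, -1.89 for Nr4a2, -0.61 for Fos, -0.56 for Fosb, -0.32 for Egr1 and -0.16 for Jun, 0 for Junb, Jund and Atf3, and -1.94 for the unmeasured Egr2.

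The scaling of the libraries decided how many members passed the 2-fold rule. With the authors' gfold constants the median of all genes moved by 0.52 on the log2 scale, to 0.28, and 2 of the 9 members, Nr4a1 and Nr4a2, were at least 2-fold lower (background 6.27%) and 0 at least 2-fold higher (background 16.5%). The differences were then -2.97 for Nr4a1, -1.56 for Nr4a2, -0.65 for Fos, -0.69 for Fosb, -0.44 for Egr1 and -0.27 for Jun, and they turned positive for Junb (0.22), Jund (0.13) and Atf3 (0.20). Nr4a1 and Nr4a2 counted as measured only through their p53 KO level. Relative to the median of all genes as deposited, 6 of 9 members were lower and 3, Nr4a1, Nr4a2 and Fos, at least 2-fold lower (background 8.76%), while 0 were at least 2-fold higher (background 9.63%). The members' median stayed between -0.81 and -0.73 from that of all genes under the 4 scalings. A common scaling can change this distance only through the 1 added to each RPKM, so its steadiness is no check on the scaling.

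**Figure D4:**
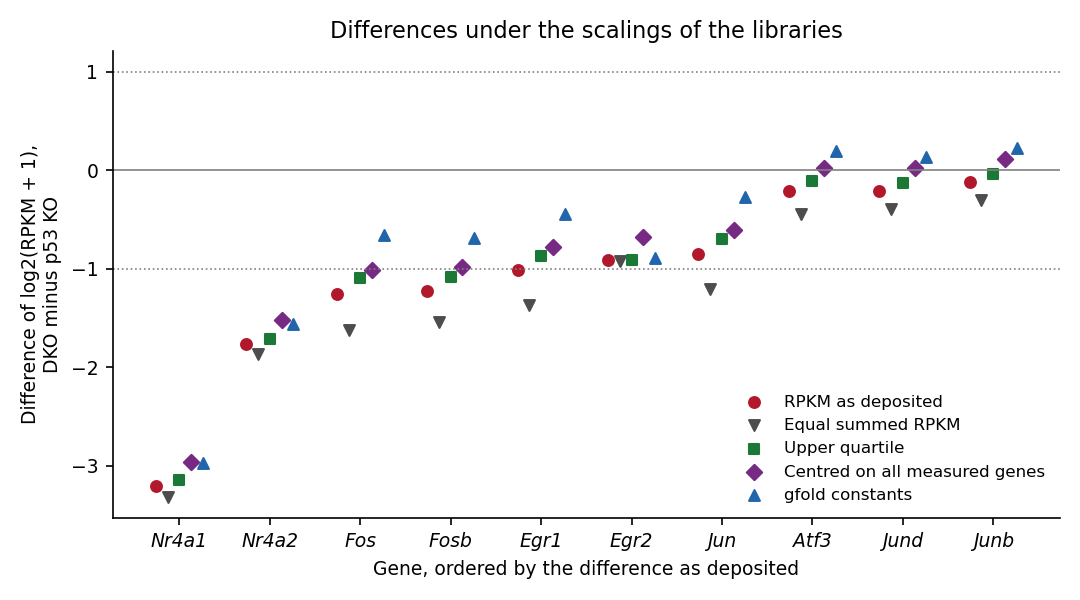
Difference of log2(RPKM + 1), DKO minus p53 KO, of each gene under 5 scalings of the same 2 libraries (symbols), with dotted lines at 2-fold. Nr4a1 and Nr4a2 stay below -1 under all 5, while Junb, Jund and Atf3 change sign with the gfold constants and with centring on the median of all measured genes.

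Relatives of the AP-1 members went in both directions. Of 21 AP-1 and ATF relatives, 16 were measured, of which 2 were higher by 2-fold or more and 2 lower, with a median difference of -0.12 (all genes -0.24). By the same rule 6.6% of all measured genes were higher and 13.5% lower. Fosl2, the Fos-like AP-1 subunit Fra-2, was higher, at 8.12 RPKM in DKO and 2.24 RPKM in p53 KO (949 and 224 reads). So was Mafg, a small Maf protein, at 49.8 RPKM in DKO and 16.3 RPKM in p53 KO. The lower ones were Bach2, a repressor of lymphoid cells, at 0.591 RPKM in DKO and 4.74 RPKM in p53 KO, and Atf2, a Jun partner, at 9.75 RPKM in DKO and 20.5 RPKM in p53 KO.

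The Egr and Nr4a relatives were mostly too low to measure. Of 8 genes 4 were measured, with 0 past 2-fold in either direction (all measured genes 13.5% lower and 6.6% higher). Nr4a3, the remaining Nr4a receptor, had 2 reads in DKO and 1 in p53 KO, Egr3 had 0 reads in DKO and 4 in p53 KO, and Egr4 had none in either. The Egr corepressor genes were at 8.92 RPKM in DKO and 12.7 RPKM in p53 KO for Nab1, and at 0.863 RPKM in DKO and 1.60 RPKM in p53 KO for Nab2. The retinoid X receptors that pair with Nr4a proteins were at 1.41 RPKM in DKO and 0.944 RPKM in p53 KO for Rxra, and at 8.78 RPKM in DKO and 17.4 RPKM in p53 KO for Rxrb.

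Among transcription factors that act on early gene promoters, 3 of 16 measured were lower by 2-fold or more and 0 higher (median -0.58), a share near the 13.5% of all measured genes: Mef2c at 16.3 RPKM in DKO and 53.3 RPKM in p53 KO, the CREB coactivator Crtc1 at 0.708 RPKM in DKO and 4.21 RPKM in p53 KO, and the SRF partner Elk3 at 1.88 RPKM in DKO and 5.39 RPKM in p53 KO. Crtc3, the next by size, was at 4.44 RPKM in DKO and 9.16 RPKM in p53 KO. With the gfold constants, 2 were lower by that rule and 1 higher, and the median was -0.21, against 0.28 over all measured genes. The shares of all measured genes were then 6.27% lower and 16.5% higher.

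All 12 ERK pathway kinases were measured, with 2 past 2-fold upward, 1 downward and a median of 0.34. Among all measured genes 6.6% were higher and 13.5% lower by 2-fold or more, with a median of -0.24. Rps6ka2 was at 5.78 RPKM in DKO and 0.974 RPKM in p53 KO, and the ERK kinase Mapk3 had 1340 reads in DKO and 449 in p53 KO. Rps6ka3 was lower, at 1.04 RPKM in DKO and 4.98 RPKM in p53 KO, and Braf was at 24.8 RPKM in DKO and 12.9 RPKM in p53 KO. Of 13 measured JNK and p38 pathway kinases, 1 was at least 2-fold higher, Mapkapk2 at 61.0 RPKM in DKO and 23.0 RPKM in p53 KO, and 1 lower, the Jun kinase Mapk8 at 5.73 RPKM in DKO and 15.5 RPKM in p53 KO (median -0.04). Rps6ka4 was at 3.47 RPKM in DKO and 1.87 RPKM in p53 KO, and the p38 kinase Mapk14 at 48.5 RPKM in DKO and 32.3 RPKM in p53 KO. With the gfold constants, 4 ERK pathway kinases were higher by 2-fold or more and 1 lower (median 0.91). In the JNK and p38 list 3 were then higher and 0 lower (median 0.51), so Mapk8 no longer passed. The shares of all measured genes with these constants were 16.5% higher and 6.27% lower, and their median was 0.28. Relative to the median of all genes, the ERK median was 0.58 as deposited and 0.63 with these constants. That of the JNK and p38 list was 0.19 as deposited and 0.23 with these constants.

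Of 32 other early response genes 29 were measured, of which 11 were lower by 2-fold or more and 3 higher, with a median of -0.84. The largest differences were those of Csrnp1 (1.18 RPKM in DKO and 10.1 RPKM in p53 KO), Myc (22.7 RPKM in DKO and 108 RPKM in p53 KO), the MAP kinase phosphatase Dusp2 (7.63 RPKM in DKO and 38.6 RPKM in p53 KO) and Zfp36, which speeds the decay of early messages (59.8 RPKM in DKO and 265 RPKM in p53 KO). Among all measured genes 13.5% were lower and 6.6% higher by 2-fold or more. With the gfold constants the list had 6 genes past 2-fold in each direction, against 6.27% lower and 16.5% higher among all measured genes. Earlier results of these data had already shown this list as lower, so it is no independent support.

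**Figure D5:**
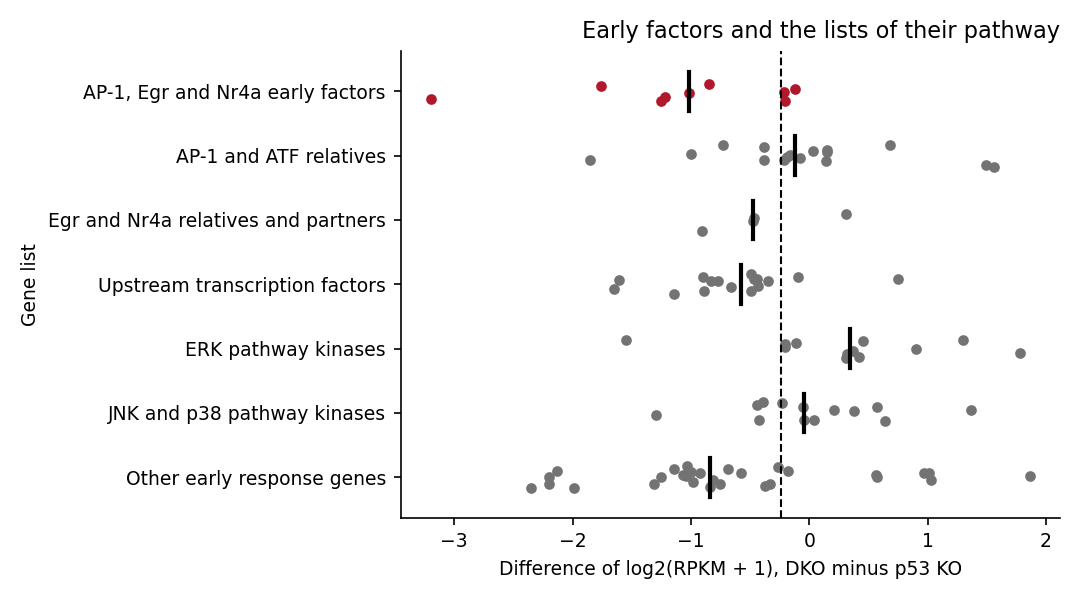
Difference of log2(RPKM + 1), DKO minus p53 KO, of each measured gene (points, spread vertically for sight) in the early factors and in 6 lists of their pathway, with black bars at list medians and a dashed line at the median of all genes. The early factors have a median of -1.01 and the other early response genes -0.84, while the ERK pathway kinases lie at 0.34.

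The libraries also differed widely in genes that mark cell types, and in bulk RNA fewer cells of a type and less RNA per cell cannot be told apart. Beside the counts that follow, 13.5% of all measured genes were lower by 2-fold or more and 6.6% higher. Of 12 LSK gate and stem cell markers 8 were lower by 2-fold or more and 0 higher, with a summed level of 455 RPKM in DKO and 1020.1 RPKM in p53 KO, and of the gate genes Kit was at 16.0 RPKM in DKO and 64.2 RPKM in p53 KO and Ly6a (Sca-1) at 281 RPKM in DKO and 255 RPKM in p53 KO. Of 17 measured granulocyte and monocyte markers 14 were higher by that rule and 2 lower, and their sum was 71733 RPKM in DKO and 6386 RPKM in p53 KO. Of 10 measured erythroid markers 9 were lower and 0 higher (sum 255 RPKM in DKO and 1761 RPKM in p53 KO; Epor was at 0 in DKO). Of 7 measured macrophage markers 6 were higher and 0 lower (sum 227 RPKM in DKO and 52.7 RPKM in p53 KO; Siglec1 was at 0 in DKO). Of 8 measured B cell markers 7 were lower and 1 higher (sum 629 RPKM in DKO and 508 RPKM in p53 KO). The higher 1 was Igll1, at 563 RPKM in DKO and 166 RPKM in p53 KO. The sum therefore does not show the direction of the other 7. Of 6 plasmacytoid dendritic cell markers 4 were lower and 1 higher (sum 201 RPKM in DKO and 200 RPKM in p53 KO). That higher 1 was Irf8, at 123 RPKM in DKO and 49.6 RPKM in p53 KO. Of 9 T and NK cell markers 5 were higher and 3 lower (sum 185 RPKM in DKO and 286 RPKM in p53 KO). Nkg7, among the lower, was at 99.6 RPKM in DKO and 229 RPKM in p53 KO. Of 4 megakaryocyte markers 1 was higher and 2 lower (sum 59.4 RPKM in DKO and 42.2 RPKM in p53 KO). The higher was Selp, at 32.2 RPKM in DKO and 5.75 RPKM in p53 KO. Of 3 endothelial and stromal markers 2 were higher and 1 lower (sum 56.7 RPKM in DKO and 27.9 RPKM in p53 KO). The part of this difference in cell type genes in the lower Fos, Fosb, Egr1, Nr4a1 and Nr4a2 values was not tested. Kdm6a was at 1.26 RPKM in DKO and 5.32 RPKM in p53 KO, and Trp53 at 12.9 RPKM in DKO and 19.4 RPKM in p53 KO.

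The measured genes nearest to Nr4a1 in level over the 2 libraries, by Euclidean distance on log2(RPKM + 1), were Cplx2 (distance 0.032), Xlr3b (0.11) and Cox6a2 (0.13). Those nearest to Junb, the member with the smallest difference, were Pcgf3 (0.011), Rps6kc1 (0.031) and Usp53 (0.034). With 2 libraries, such a likeness rests on 2 values per gene.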

How the data were processed

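LSK cells of 1 Utx/p53 DKO and 1 p53 KO sample were compared, grouped by the labelled genotype. Per the labels' protocols, cDNA was made with a SMART kit from oligo-dT-selected RNA and amplified by PCR, which can distort low values. The sources name the build mm9 and the tools TopHat2 2.1.0 and bcl2fastq 1.8.4, per the submitters' processing notes. The table comes from gfold 1.1.4, per its header, and holds 28344 RefSeq transcripts, and for each the authors deposited an RPKM value of both libraries, a log2 fold change, the GFOLD value (also log2) and a q-value, which was 1 throughout. The header lists the p53 KO library first and the DKO library second, which assigned the columns by title. The treatment of multi-mapping reads is not stated in the labels.

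Differences, DKO minus p53 KO, were taken on log2(RPKM + 1) for genes averaging 1 RPKM or more and called at 2-fold. This scale makes changes at low levels look smaller. Read numbers were worked out from both RPKM columns, the authors' log2 fold change, and the header's read totals and gfold constants. The transcript length was sought at which both RPKM values are whole reads and those reads give the fold change, within printed rounding. This gave a single answer in 95.3% of the 24644 transcripts that had reads. Intervals are exact, at 95%, and cover counting error only (scipy 1.17.1). No count test was made, since it would compare 2 libraries rather than genotypes. The scripts were tested on simulated data. Members, gene lists, motifs and pairs were chosen with earlier results of these data known. Besides the members and the targeted genes, up to 4 genes per pathway list with the largest absolute difference are named. Named as well are the 3 genes nearest to the lowest and to the highest member. Nr4a3, Egr3, Egr4, Kit, Ly6a, Igll1, Irf8, Nkg7, Selp, Epor and Siglec1 are named outside these rules. Alternatives were pseudocounts of 0.1 and 5, filters, scalings, transcript choice and folds of 1.5 and 3; centring on all measured genes was added after seeing the data. Chromosomes, GC, exons and promoters came from GRCm38 by accession or symbol.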

Additional observations from a re-analysis of the deposited data

How the results depend on the processing

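Of the 9 measured members, 5 were at least 2-fold lower as reported, against 13.5% of all measured genes. The count was 2 with a pseudocount of 5 (all genes 4.19%) and 2 with the gfold constants (6.27%). It was 2 with a 3-fold rule (4.34%) and 3 after centring on the median of all measured genes (8.76%). The pseudocount shrinks low genes and the stricter fold admits fewer by construction. The gfold constants rescale the whole DKO library and the centring shifts every gene equally, so members near the fixed 2-fold line no longer passed. Which scaling is right was not tested. The count of lower members was 4 to 6 under the remaining alternatives, where 7.82% to 29.6% of all genes were lower. It was 6 with equal summed RPKM (23.9%) and with the 1.5-fold rule (29.6%). With a mean of at least 5 RPKM it was 4 of only 5 members (11%). The count of higher members was 0 under every alternative run, against 369 to 1873 of all genes. The members' median relative to all genes (-0.78) was -0.60 with a pseudocount of 5 and -1.04 with a mean of at least 5 RPKM, where 5 members were left. Over the settings that move single values, Nr4a1 lay between -4.44 and -1.69, Nr4a2 between -2.92 and -0.70, Fos between -1.62 and -0.65 and Egr1 between -1.36 and -0.44, all below 0. The choice of transcript could move no ratio, since Nr4a2 alone has more than 1 transcript and both have the same reads. No paired analysis was possible because there was 1 library per genotype. Depth limits Junb, Jund, Atf3 and Egr2, which had at most 76 reads in either library.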
